A study of Mus musculus with 15 samples.

Results

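The genes described here are Myc and a list of nucleolar and ribosome assembly genes, followed in jejunal epithelial cells of mice before and after an oral peanut challenge. The list names 37 genes, Myc and 36 with roles in the nucleolus or in ribosome assembly. Of these, 36 were found in the deposited tables among 52844 genes, and all 36 passed the filter on low counts that left 14968 genes for testing. Noc2l matched no transcript used here and was not analysed. The smallest count of a member in any library was 79 reads, for Nip7, so no member passed the filter only through the group in which it was high.

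Ribosomes are built in the nucleolus. RNA polymerase I transcribes the ribosomal RNA precursor, small nucleolar ribonucleoproteins (snoRNPs) guide its chemical modification and folding, and a long series of assembly factors processes the precursor and adds ribosomal proteins until the small and the large subunit can leave the nucleus. Myc is a transcription factor that binds the sequence CACGTG (the E-box) as a dimer with Max and is known to raise transcription of many of these genes. In the intestine it is best known from the dividing cells of the crypts.

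Peanut extract was given by gavage in every peanut group at 2 mg weekly for 3 weeks and 5 mg in week 4, and the PBS mice received PBS on the same schedule. The groups, of 3 libraries each, were PBS mice without challenge, sensitized control mice (peanut-sensitized and unchallenged, labelled 0 min), and sensitized mice killed 30, 60 or 120 min after a challenge with 12 mg of peanut. All 15 mice were of the inbred strain CC027/GeniUnc, with no age among the labels used here. Polyadenylated RNA was sequenced from epithelial cells shaken off a 4 cm stretch of jejunum, so ribosomal RNA itself was not measured. No group received a challenge gavage that lacked peanut, among the libraries analysed here, so peanut, the gavage itself, handling and the time since then cannot be told apart. Each library has its own number in its title and was taken to come from its own mouse. In the main fit, every p-value rests on a spread between libraries that is estimated per gene over all 5 groups together. It therefore does not follow a group whose own spread is wider or narrower.

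Libraries held 15661513 to 22691349 estimated counts. The 8 epithelial markers were present in every library, with a summed level of 8200 to 11800 CPM (counts scaled to library size by TMM). Markers of T cells and intraepithelial lymphocytes summed to 30.4 to 312 CPM, markers of macrophages and dendritic cells to 75.3 to 549 CPM, and markers of B and plasma cells to 61.0 to 1300 CPM, so transcripts of immune cells were present too. Mitochondrially encoded genes took 13.67% to 33.09% of the counts, with the highest share in 60 min replicate 3. That library and 120 min replicate 3 stand apart for the genes described here, and many but not all results that rest on them are given with and without them. In such bulk isolates, fewer cells of a type and less RNA per cell cannot be told apart.

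Levels of the members per transcript length spanned a wide range. Averaged over all libraries, Npm1, which encodes the nucleolar chaperone nucleophosmin, had the highest level at 279 TPM (an abundance scaled for transcript length). Ncl, which encodes nucleolin, followed at 106 TPM. The 3 listed genes for core proteins of the box C/D snoRNPs came next, Nop58 at 59.3, Nop56 at 48.0 and Fbl at 45.4 TPM. The box H/ACA snoRNP genes lay between 17.5 and 29.6 TPM, with Nhp2 highest. The subunit assembly genes had 3.88 TPM (Utp20) to 27.7 TPM (Gnl3), and Myc itself had 8.59 TPM. The 2 large subunits of RNA polymerase I, Polr1a and Polr1b, had 5.01 and 8.31 TPM.

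The comparison of 120 min mice with sensitized control mice asks how these genes stood at the latest time after challenge. All 36 members had a positive log2 fold change at 120 min, with a median of 0.46 and a range of 0.08 to 0.75, whereas the median over all genes tested was -0.01 and 49.2% of them were positive. Ddx21, which encodes a nucleolar RNA helicase that acts in RNA polymerase I transcription and ribosomal RNA processing, was the 1 member that passed the test. It had 170, 148 and 227 CPM in the 120 min mice, against 109, 109 and 107 CPM in the sensitized control mice. Every 120 min library was above every control library, and the 3 controls were within a narrow band. The SD was 41.0 CPM in the 120 min mice and 0.907 CPM in the controls, while the test used a spread shared by all groups. Ddx21 rose 1.68-fold, a log2 fold change of 0.75 ± 0.14 (SE; edgeR's quasi-likelihood test, Benjamini-Hochberg adjusted p = 0.029). The call is 1 of 36 members, or 2.78%, beside 0.722% of all genes tested that were called higher in this comparison.

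Read without that threshold, the groups were often apart. In 17 of the 36 members all 3 libraries of the 120 min mice were above all 3 of the sensitized control mice, which is 47.2% of the members against 13.3% of all genes tested. No member lay wholly below. At an unadjusted p under 0.05, 16 members were higher, or 44.4% against 8.79% of all genes tested. Utp20, a large scaffold protein of the small subunit processome, came closest to Ddx21. It had 39.7, 41.2 and 58.4 CPM in the 120 min mice and 30.7, 27.9 and 28.1 CPM in the sensitized control mice, with a log2 fold change of 0.69 ± 0.18 that did not pass the test (edgeR, Benjamini-Hochberg adjusted p = 0.0665).

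**Figure D1:**
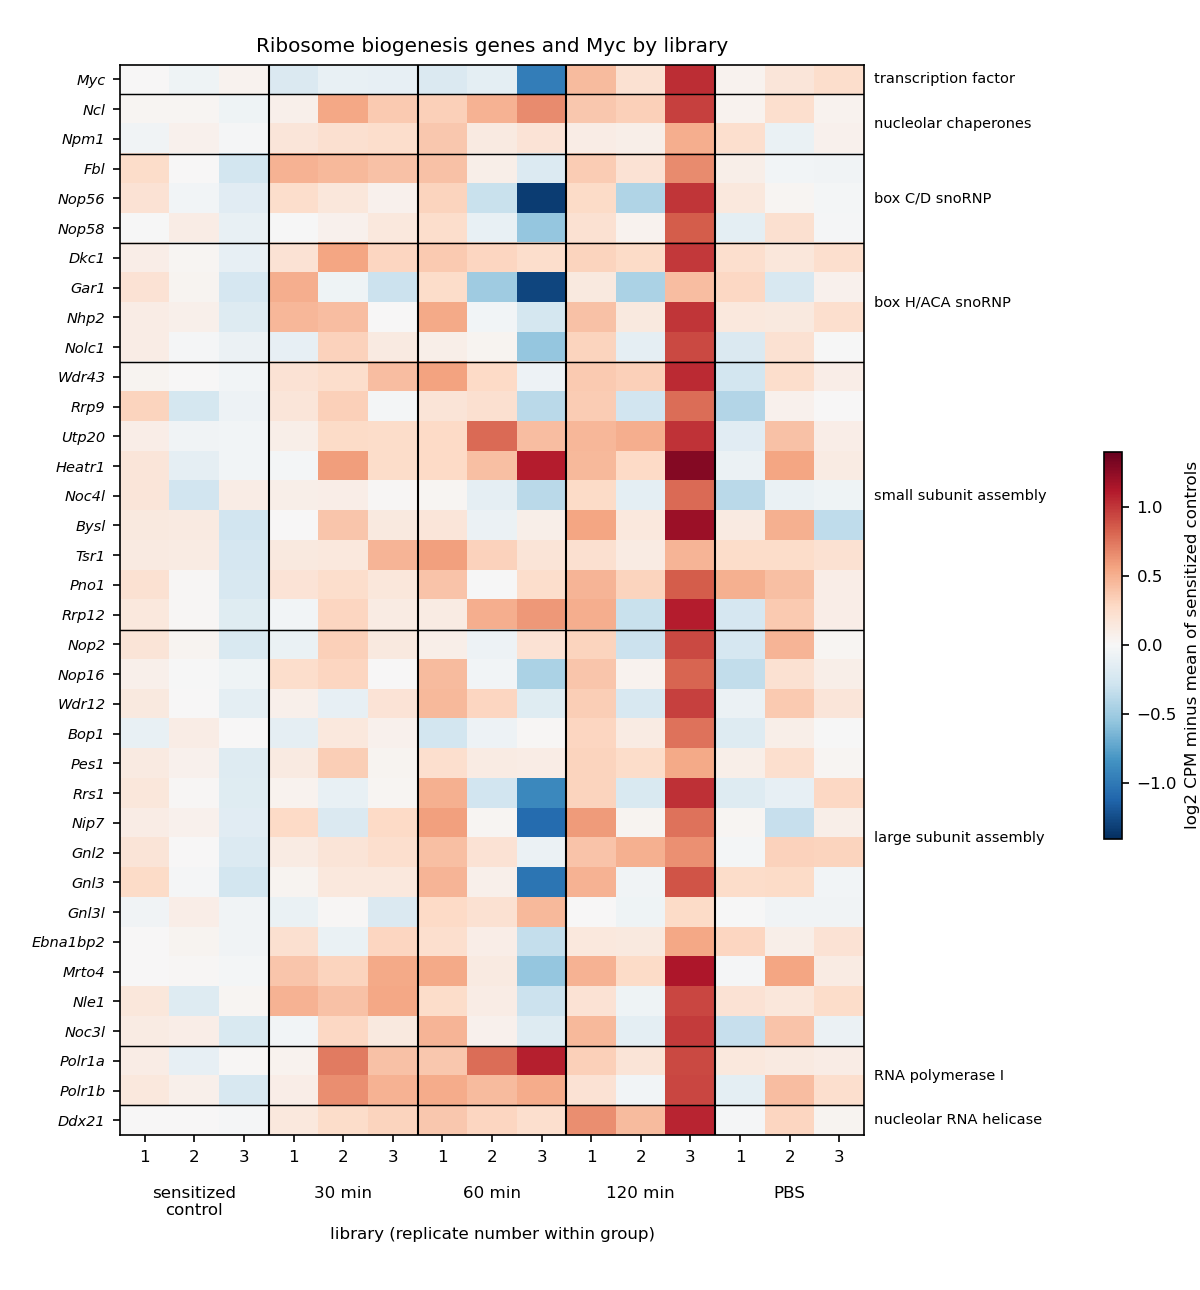
Each row is a member and each column a library, grouped by condition and numbered by replicate, and the colour gives log2 CPM minus the mean of the 3 sensitized control libraries, red above and blue below. The column of 120 min replicate 3 is red in all 36 rows, while the columns of the other two libraries of the 120 min mice are paler and 60 min replicate 3 is blue in many rows.

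Much of the size of this difference came from 1 mouse. In 120 min replicate 3 the median member was 0.93 above the control mean on the log2 scale, against 0.35 in replicate 1 and 0.10 in replicate 2 of the 120 min mice. This library was the highest of its group for all 36 members and the highest of all 15 libraries for 32. Replicate 2 was the lowest of the 120 min group for 34 members. With replicate 3 left out, a check added after its values were seen, 33 of 36 members had a positive log2 fold change, against 47.4% of all genes tested, with a median of 0.22 beside -0.02 over all genes tested. No member then passed the test, where 0.0584% of all genes tested did so upwards. At an unadjusted p under 0.05, 7 members, or 19.4%, were higher, against 5.99% of all genes tested, and Ddx21 had a log2 fold change of 0.55 with a Benjamini-Hochberg adjusted p of 0.0765 in edgeR. Because replicate 3 was the highest of its group for every member, leaving it out could not change which members were separated. Replicates 1 and 2 alone were therefore above all 3 controls for the same 17 members, or 47.2%, against 17.8% of all genes tested. That count is no check on the weight of replicate 3.

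The promoter of Ddx21 is shown because this is the member that passed the test. It is the stretch from 250 bases before to 50 bases after the RefSeq gene start in build GRCm38.p6, printed along the gene's own strand with no bases in capitals.
Ddx21, chr10:62602249-62602548, minus strand: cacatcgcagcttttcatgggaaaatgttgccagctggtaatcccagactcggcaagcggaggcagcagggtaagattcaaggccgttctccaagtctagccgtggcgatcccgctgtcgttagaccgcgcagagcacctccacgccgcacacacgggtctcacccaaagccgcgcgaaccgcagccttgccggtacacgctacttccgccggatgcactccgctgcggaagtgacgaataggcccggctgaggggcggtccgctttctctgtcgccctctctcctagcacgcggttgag
RefSeq windows of this kind were matched for 28 of the 36 members. They were searched for CACGTG, the E-box bound by dimers of Myc and Max, which reads the same on both strands. It was found for 7 of these 28 members, or 25%, against 11.5% of the 10700 genes tested here that were matched to a window. Counted by window, 7.15% of the 32851 in the whole table hold it. A match is a string of letters and not evidence of binding, and its absence from the Ddx21 window says only that those letters are not in it. The stretch around each match is shown next, with the E-box in capitals, and ends early where the window ends.
Nop2, chr6:125131811-125131840, plus strand: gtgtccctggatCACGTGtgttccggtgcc
Utp20, chr10:88826765-88826789, minus strand: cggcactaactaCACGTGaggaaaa
Pes1, chr11:3963965-3963994, plus strand: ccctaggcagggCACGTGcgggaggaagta
Pno1, chr11:17211540-17211564, minus strand: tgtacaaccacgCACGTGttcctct
Tsr1, chr11:74898092-74898121, plus strand: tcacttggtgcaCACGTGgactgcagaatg
Nle1, chr11:82908355-82908384, minus strand: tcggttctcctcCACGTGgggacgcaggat
Wdr43, chr17:71616220-71616249, plus strand: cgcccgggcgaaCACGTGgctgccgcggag
The E-box began 60 bases before the RefSeq start in Nop2. In the others it began after the start, counting the start as base 1, at base 3 in Pes1, base 18 in Wdr43, base 24 in Nle1, base 25 in Tsr1 and base 38 in both Utp20 and Pno1. At 120 min against the sensitized controls, the 7 members with the motif had a median log2 fold change of 0.42 and a range of 0.27 to 0.69. That range lies inside the range of the 21 members without the motif, 0.08 to 0.75, whose median was 0.48.

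Myc stood below the sensitized controls at the first 2 times and above them at the last. It had 22.3, 21.3 and 23 CPM in the sensitized control mice, 19.3, 20.6 and 20.5 CPM at 30 min, 19.2, 20.2 and 11.3 CPM at 60 min, and 30.2, 25.7 and 45.7 CPM at 120 min. Every library at 30 and at 60 min lay below every control library, and every library at 120 min lay above. Against the sensitized controls, the log2 fold change was -0.14 ± 0.21 at 30 min (edgeR, Benjamini-Hochberg adjusted p = 0.991), -0.39 ± 0.21 at 60 min (adjusted p = 0.466) and 0.61 ± 0.21 at 120 min (adjusted p = 0.148), and none of the 3 passed the test. The PBS mice had 23, 24.9 and 26.4 CPM.

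Set against each other, the 2 later times differed for Myc. It averaged 33.9 ± 10.5 CPM in 120 min mice and 16.9 ± 4.88 CPM in 60 min mice (SD, n = 3 each), and it rose with a log2 fold change of 0.999 ± 0.21 (SE; edgeR, Benjamini-Hochberg adjusted p = 0.0386). It was the 1 member called in this comparison, in which 0.588% of all genes tested were called higher. The extremes of both groups were their replicates 3. Without 120 min replicate 3 the log2 fold change was 0.71 (adjusted p = 0.125), without 60 min replicate 3 it was 0.76 (adjusted p = 0.126), and without both it was 0.49 (adjusted p = 0.2). The call was also lost without 60 min replicate 2 (log2 fold change 1.12, adjusted p = 0.0758) and without 120 min replicate 1 (log2 fold change 1.04, adjusted p = 0.132).

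**Figure D2:**
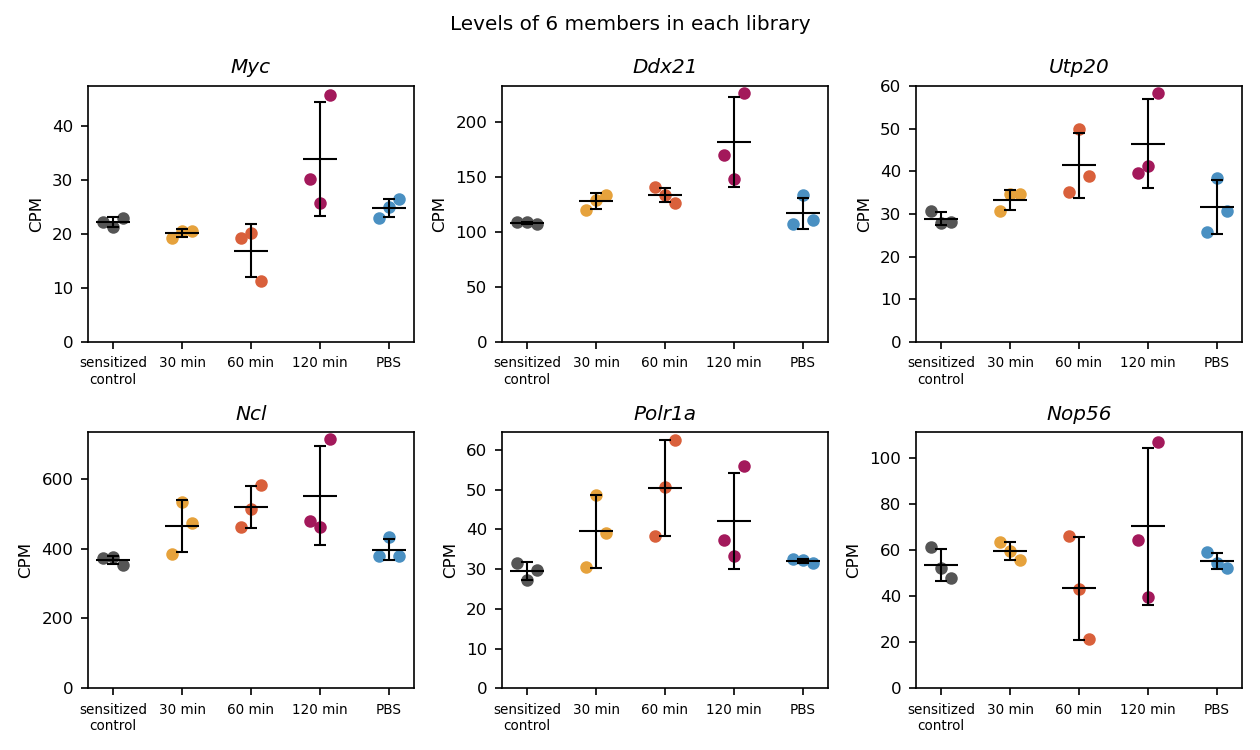
Points show the CPM of 6 members in each library, and the bars give the mean and SD of each group of 3. Myc lies between 25.7 and 45.7 CPM at 120 min and between 11.3 and 20.2 CPM at 60 min, and Ddx21 lies between 148 and 227 CPM at 120 min and between 107 and 109 CPM in the sensitized control mice.

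In the 120 min mice against the sensitized control mice, both nucleolar chaperone genes had all 3 libraries above all 3 controls. Ncl had 478, 462 and 714 CPM in the 120 min mice and 373, 375 and 353 CPM in the controls, with a log2 fold change of 0.59 ± 0.17 (edgeR, Benjamini-Hochberg adjusted p = 0.0922). Of the counts of Ncl, 53.4% ± 1.91 in the 120 min mice and 55.2% ± 1.36 in the controls (SD, n = 3 each) were assigned to transcripts annotated as retaining an intron, more than to its protein-coding transcripts. Npm1 had 287, 284 and 380 CPM in the 120 min mice and 260, 280 and 264 CPM in the controls, and its log2 fold change was 0.24 ± 0.13 (adjusted p = 0.353). Neither passed the test.

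Among the snoRNP genes, 0 of the 3 box C/D genes and 2 of the 4 box H/ACA genes were fully separated at 120 min. Nop58 had 77.2, 68.8 and 121 CPM in the 120 min mice and 66.6, 71.6 and 62.2 CPM in the sensitized control mice, so the groups overlapped. Nop56 ranged from 39.9 to 107 CPM in the 120 min mice, against 47.8 to 61.4 CPM in the controls. Nhp2, a core protein of the H/ACA particles, had 32.3, 26.7 and 48.6 CPM in the 120 min mice and 26.2, 25.5 and 21.5 CPM in the controls, with no overlap and a log2 fold change of 0.56 ± 0.22 (edgeR, Benjamini-Hochberg adjusted p = 0.201). Dkc1, the pseudouridine synthase of the same particles, was also separated, at 35.8, 34.6 and 57.2 CPM in the 120 min mice and 30.8, 29.3 and 26.6 CPM in the controls. Gar1, another core protein, had a log2 fold change of 0.08 ± 0.33, with 16.8 ± 4.89 CPM in the 120 min mice and 15.9 ± 2.40 CPM in the controls (SD, n = 3 each).

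The 9 small subunit assembly genes had a median log2 fold change of 0.56 at 120 min, and 5 of the 9 were separated from the controls. They were Wdr43, Utp20, Heatr1, Bysl and Pno1. Wdr43, a protein that joins the nascent ribosomal RNA early, had 63.7, 62.2 and 101 CPM in the 120 min mice and 50.5, 49.3 and 48.0 CPM in the sensitized control mice. Its log2 fold change was 0.62 ± 0.19 (edgeR, Benjamini-Hochberg adjusted p = 0.116). Pno1, which stays with the small subunit until late in its maturation, had 25.6, 23 and 33.3 CPM in the 120 min mice and 21.3, 18.6 and 15.7 CPM in the controls. With 120 min replicate 3 left out, the median of the 9 was 0.35 and all 9 were positive. Tsr1 had the smallest value of the 9, 0.27 ± 0.14.

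The 14 large subunit assembly genes tested had a median of 0.45 at 120 min, or 0.19 with 13 of 14 positive when 120 min replicate 3 was left out. Bop1 and Pes1, partners in the PeBoW complex, were both separated from the controls, while the third partner Wdr12 was not. Gnl2, a nucleolar GTPase, had 38.9, 41.7 and 46.0 CPM in the 120 min mice and 33.5, 29.7 and 25.8 CPM in the sensitized control mice, with a log2 fold change of 0.51 ± 0.15 (edgeR, Benjamini-Hochberg adjusted p = 0.0932). Here replicate 3 was less far from the rest of its group. Gnl3, which encodes nucleostemin, overlapped between the groups, with 49.8, 34.3 and 65.6 CPM in the 120 min mice and 42.9, 35 and 29.8 CPM in the controls. Its relative Gnl3l had a log2 fold change of 0.08 ± 0.12, with 35.7 ± 4.39 CPM in the 120 min mice and 33.8 ± 2.01 CPM in the controls (SD, n = 3 each). The RNA polymerase I subunit Polr1b had 27.7, 23.4 and 45.9 CPM in the 120 min mice and 26.7, 25.2 and 20.5 CPM in the controls, with overlap and a log2 fold change of 0.42 ± 0.22. Polr1a was separated, at 37.2, 33.4 and 56.0 CPM in the 120 min mice and 31.5, 27.2 and 29.7 CPM in the controls. Its log2 fold change of 0.52 ± 0.21 did not pass the test (edgeR, Benjamini-Hochberg adjusted p = 0.214).

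At 30 min against the sensitized controls, 33 of 36 members were positive with a median log2 fold change of 0.17, beside 0.01 over all genes tested, of which 51.2% were positive. No member passed the test and neither did any other gene (0.0% of all genes tested), and 2 members, or 5.56%, were higher at an unadjusted p under 0.05, against 2.72% of all genes tested. All 3 libraries were above the controls for 9 members, or 25%, against 6.49% of all genes tested, and below the controls for 1 member, Myc, where 7.84% of all genes tested lay below. Fbl, the ribosomal RNA methyltransferase fibrillarin, had 68.2, 67.1 and 64.7 CPM in the 30 min mice and 58.2, 49.0 and 40.7 CPM in the sensitized control mice, with a log2 fold change of 0.43 ± 0.16 (edgeR, Benjamini-Hochberg adjusted p = 0.941). Dkc1 had 33.2, 42.4 and 35.6 CPM in the 30 min mice against 30.8, 29.3 and 26.6 CPM in the controls. Nle1, a factor of large subunit maturation, had 12.2, 11.5 and 12.6 CPM in the 30 min mice against 9.63, 7.59 and 8.82 CPM in the controls. These 3 had the smallest p among the members, and in each the groups did not overlap.

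At 60 min, 26 of 36 members were positive and the median log2 fold change was 0.11, beside -0.02 over all genes tested, of which 47.6% were positive. None passed the test, in a comparison in which 0.00668% of all genes tested were called in either direction. All 3 libraries lay above the controls for 10 members, or 27.8%, against 9.37% of all genes tested, and below for Myc (9.14% of all genes tested). At 60 min 8 members were higher at an unadjusted p under 0.05, or 22.2% against 6.49%. Polr1a, the largest subunit of RNA polymerase I, had 38.3, 50.7 and 62.6 CPM in the 60 min mice and 31.5, 27.2 and 29.7 CPM in the sensitized control mice. Its log2 fold change of 0.78 ± 0.21 did not pass (edgeR, Benjamini-Hochberg adjusted p = 0.218). In DESeq2 it passed (adjusted p = 0.0347), where 129 of all genes were called higher and 60 lower. Without 60 min replicate 1 it also passed, at 0.96 (edgeR, adjusted p = 0.0389), where 220 of 15421 genes were called higher and 165 lower. Polr1a is long, with an effective length of 6675 bases. In both libraries then left, replicates 2 and 3, longer members stood higher than shorter ones, as given below. Polr1b, the second largest subunit, had 34.5, 32.6 and 34.5 CPM in the 60 min mice and 26.7, 25.2 and 20.5 CPM in the controls, also without overlap. Ncl had 463, 513 and 583 CPM in the 60 min mice and 373, 375 and 353 CPM in the controls. Utp20 had 35.1, 50 and 39.0 CPM in the 60 min mice and 30.7, 27.9 and 28.1 CPM in the controls, and neither gene overlapped between the groups.

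**Figure D3:**
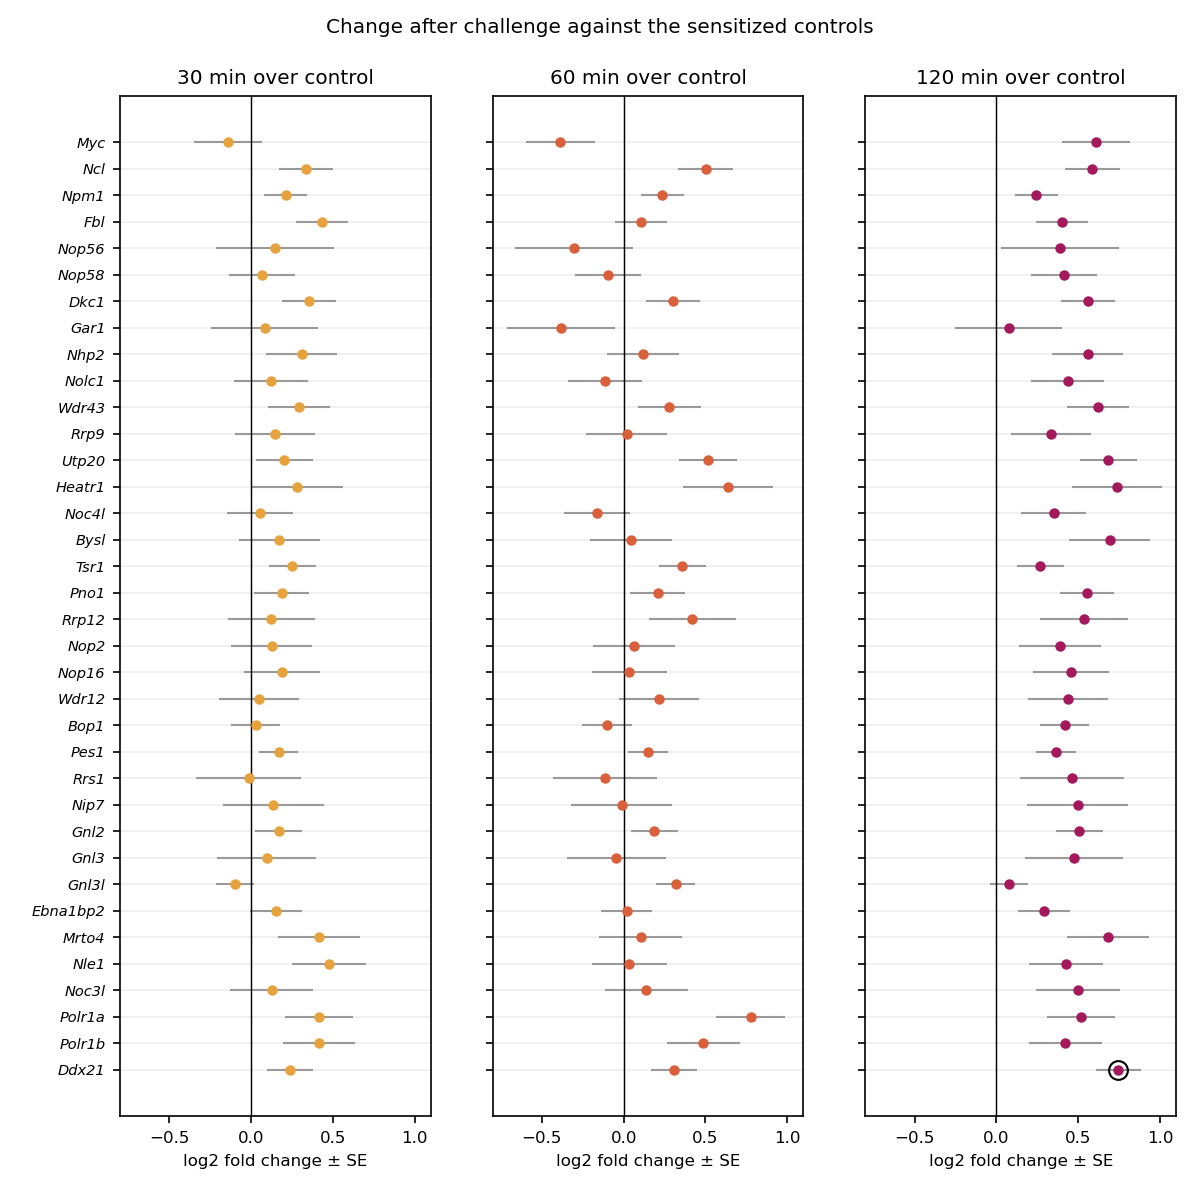
Points give the log2 fold change of each member over the sensitized control mice at 30, 60 and 120 min, with bars for 1 SE, and a ring marks the 1 value that passed the test, Ddx21 at 120 min (0.75). Right of 0 are 33 points at 30 min, 26 at 60 min and all 36 at 120 min, and all 3 panels share the same 3 control libraries.

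The values of 60 min replicate 3 were spread along transcript length. In it the 18 shorter members had a median of -0.36 relative to the control mean on the log2 scale and the 18 longer members a median of 0.19. Across the 36 members of this 1 library, deviation and effective length had a rank correlation of 0.64, and across all genes tested 0.36, given as a description. The short Gar1 had 19.0, 11.2 and 6.45 CPM at 60 min against 18.2, 16.2 and 13.4 CPM in the sensitized control mice, while the long Heatr1 had 35.9, 39.5 and 63.3 CPM at 60 min against 33.2, 27.1 and 28.8 CPM in the control mice. The same library held the largest share of mitochondrially encoded counts, 33.09%, and was the lowest of all 15 for 13 members. A similar trend was present in 60 min replicate 2, with a correlation of 0.52 across the 36 members and 0.33 across all genes tested. Its shorter members had a median of 0.08 and its longer members one of 0.29. In 60 min replicate 1 the correlation was -0.16 across the members and 0.01 across all genes. In 30 min replicate 1 the correlation ran the other way, -0.66 across the 36 members and -0.08 across all genes tested. In 120 min replicate 3 it was 0.39 across the members and 0.02 across all genes, and short and long members were alike high there, with medians of 0.81 and 0.97. Without 60 min replicate 3, but with replicate 2 kept, 32 of 36 members were positive at 60 min and their median was 0.26. The part of transcript length in the 60 min values was not tested.

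**Figure D4:**
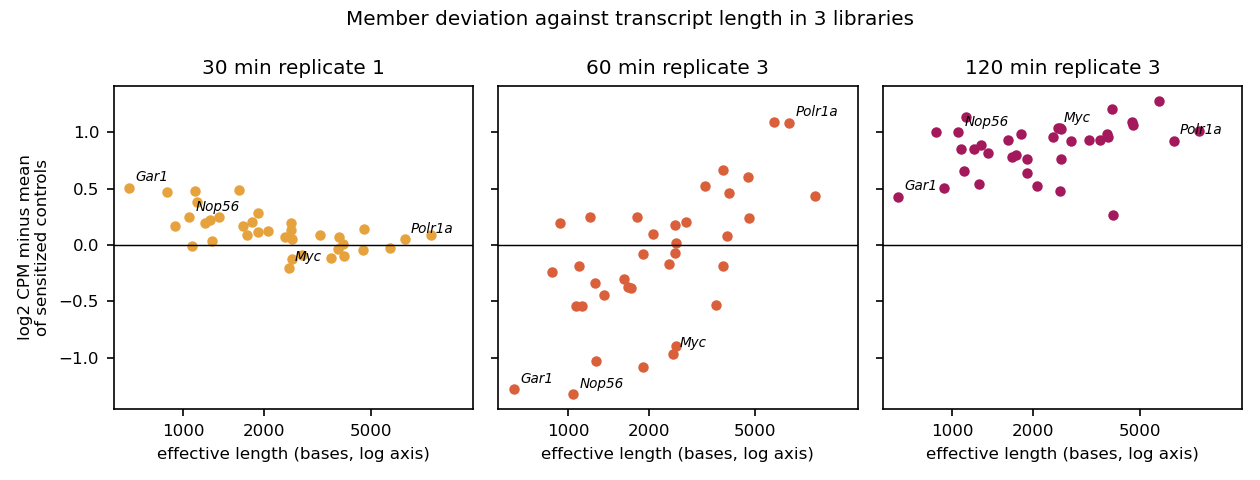
Each point is 1 of 36 members, plotted by its mean effective length in bases on a log axis and its log2 CPM minus the mean of the sensitized controls, in 3 libraries. Points climb with length in 60 min replicate 3 (rank correlation 0.64), descend in 30 min replicate 1 (-0.66) and lie above 0 at every length in 120 min replicate 3. Not drawn is 60 min replicate 2, with a rank correlation of 0.52.

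The times were also set against each other. In 120 min mice against 30 min mice, 33 of 36 members were positive with a median of 0.28, beside 48.8% of all genes tested that were positive. None passed the test, whereas 0.595% of all genes tested were called higher, and 6 members, or 16.7%, were higher at an unadjusted p under 0.05, against 8.26%. Ddx21 (log2 fold change 0.51 ± 0.14, edgeR with Benjamini-Hochberg adjusted p = 0.0889), Myc (0.75 ± 0.21, adjusted p = 0.093) and Utp20 (0.48 ± 0.18, adjusted p = 0.173) had the smallest p, and in each all 3 libraries at 120 min were above all 3 at 30 min. For Ddx21 these were 170, 148 and 227 CPM at 120 min against 120, 129 and 134 CPM at 30 min. Without 120 min replicate 3 the median of the 36 was 0.02. In 120 min mice against 60 min mice, 32 of 36 were positive with a median of 0.34, beside 49.5% positive of all genes tested, and 4 members were separated, Myc, Bop1, Pes1 and Ddx21, or 11.1% against 10.2% of all genes tested. Without the replicates 3 of both groups that median was -0.05. In 60 min mice against 30 min mice 14 of 36 were positive (47.0% of all genes tested) with a median of -0.08, no member passed, nor did any other gene (0.0%), and 1 member was higher at an unadjusted p under 0.05 (2.27% of all genes tested). Averaged over 30, 60 and 120 min and set against the sensitized control mice, 35 of 36 members were positive, beside 47.5% of all genes tested, with a median of 0.24. In that average no member and no other gene passed (0.0%), and 13 members, or 36.1%, were higher at an unadjusted p under 0.05, against 5.34% of all genes tested. In a joint test of any difference among the 3 times and the sensitized control, no member passed, beside 0.521% of all genes tested, and the smallest values were those of Ddx21 (edgeR, Benjamini-Hochberg adjusted p = 0.0638), Myc (adjusted p = 0.0798) and Utp20 (adjusted p = 0.14).

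Sensitization alone was read from the sensitized control mice against the PBS mice. Here 30 of 36 members had a negative log2 fold change, with a median of -0.11 beside 0.01 over all genes tested, of which 51.5% were positive, and none passed the test, nor did any other gene (0.0%). No member had an unadjusted p under 0.05, where 0.561% of all genes tested were higher and 0.855% lower at that level. All 3 sensitized control libraries were below all 3 PBS libraries for 8 members, or 22.2%, against 4.10% of all genes tested. The smallest p belonged to Pno1, with 21.3, 18.6 and 15.7 CPM in the sensitized control mice and 26.1, 24.6 and 19.6 CPM in the PBS mice. Its log2 fold change was -0.34 ± 0.17 (edgeR, Benjamini-Hochberg adjusted p = 1). Tsr1, which acts in late maturation of the small subunit, had 41.8, 41.5 and 32.5 CPM in the sensitized control mice and 45.9, 45.7 and 44.5 CPM in the PBS mice. Gnl2 had 33.5, 29.7 and 25.8 CPM in the sensitized control mice and 29.0, 36.8 and 36.5 CPM in the PBS mice, with overlap. Because the same 3 sensitized control libraries enter this comparison and those with the challenged mice on opposite sides, a low value in them gives opposite signs in both. With the PBS mice as the control in their place, all 36 members were positive at 120 min with a median of 0.41, and Ddx21 again was the 1 member called (log2 fold change 0.63, edgeR with Benjamini-Hochberg adjusted p = 0.0431). Relative to the sensitized control mean on the log2 scale, the median member of the PBS libraries stood at -0.008, 0.221 and 0.086. The 30 min libraries, with 0.101, 0.26 and 0.157, overlapped these PBS values. The 60 min libraries, with 0.352, 0.099 and -0.124, overlapped them too, as did 120 min replicate 2 (0.099). By this measure, the excess over the sensitized controls at the earlier times was not clear of the PBS mice.

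Other genes of the pathway, from lists that do not hold the members, were read in the same way at 120 min against the sensitized controls. Of all 14968 genes tested, 49.2% were positive in this comparison, and 108 were called higher and 79 lower. None of the 109 other assembly, snoRNP and RNA polymerase I genes tested passed the test in either direction, and 98 were positive with a median log2 fold change of 0.32. At an unadjusted p under 0.05 in edgeR, 44 of the 109 were higher and 3 lower, where 8.79% of all genes tested were higher. By class, the other small subunit assembly genes were positive in 44 of 46 (median 0.34), the other large subunit assembly genes in 39 of 42 (0.36), the other snoRNP assembly genes in 8 of 9 (0.10) and the other RNA polymerase I genes in 7 of 12 (0.10). Without 120 min replicate 3, 15 of the 109 were higher at that level, against 5.99% of all genes tested. In that fit 78 of the 109 were positive with a median of 0.12, beside 47.4% positive of all genes tested, and the classes parted. The small subunit genes were then positive in 37 of 46 (median 0.14) and the large subunit genes in 35 of 42 (0.19), but the snoRNP genes in 1 of 9 (-0.08) and the RNA polymerase I genes in 5 of 12 (-0.17). Among the polymerase I genes, Ubtf, a factor that holds ribosomal DNA in an active state, had 71.4 ± 8.56 CPM in the 120 min mice and 97.2 ± 1.0 CPM in the sensitized control mice (SD, n = 3 each), a log2 fold change of -0.45 ± 0.12 (edgeR, Benjamini-Hochberg adjusted p = 0.0715). The 80 cytosolic ribosomal protein genes tested had a median of 0.11, with 69 positive, and none passed. Of these 80, 2 were higher at an unadjusted p under 0.05 in edgeR. Without 120 min replicate 3 their median was 0.05 with 59 positive. Among 26 known targets of Myc outside ribosome assembly, 25 were positive with a median of 0.35 and none passed, and without 120 min replicate 3 there were 22 positive with a median of 0.09. Tfrc, the transferrin receptor, led them with 426 ± 78.3 CPM in the 120 min mice and 232 ± 24.5 CPM in the sensitized control mice (SD, n = 3 each; log2 fold change 0.87 ± 0.21, adjusted p = 0.0547).

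The 13 genes of the Myc network, the partners and competitors of Myc, were positive in 5 of 13 with a median of -0.18 at 120 min. Mga, which dimerizes with Max and is known as a repressor at E-boxes, had 25.6 ± 1.2 CPM in the 120 min mice and 36.1 ± 3.21 CPM in the sensitized control mice (SD, n = 3 each). It fell by 0.50 ± 0.10 on the log2 scale (SE; edgeR, Benjamini-Hochberg adjusted p = 0.0312). Against the 60 min mice, which had 35.5 ± 1.63 CPM, it also fell (log2 fold change -0.47 ± 0.10, adjusted p = 0.0404). Mlx, a related factor that dimerizes with other members of the network, had 104 ± 4.81 CPM at 120 min, against 70.2 ± 8.01 CPM at 60 min and 74.3 ± 1.71 CPM at 30 min. It rose over both, by log2 fold changes of 0.57 ± 0.10 over 60 min (adjusted p = 0.0224) and 0.49 ± 0.10 over 30 min (adjusted p = 0.042). Over the sensitized controls, which had 86.7 ± 2.58 CPM, its 0.27 ± 0.10 did not pass (adjusted p = 0.182). None of these 4 calls held under every library left out. With each of the 6 libraries of a comparison left out in turn, a check added after the values were seen, the call of Mga against the sensitized controls was lost in 6 of 6 (adjusted p 0.0564 to 0.147), and so was that of Mlx over 30 min (0.0654 to 0.145). The call of Mga against 60 min was lost in 5 of 6 and held only without 60 min replicate 1 (0.0241 to 0.132). That of Mlx over 60 min was lost in 4 of 6 and held without 120 min replicate 2 or 60 min replicate 1 (0.0132 to 0.0984). The log2 fold changes stayed between -0.57 and -0.44 for Mga and between 0.44 and 0.60 for Mlx.

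**Figure D5:**
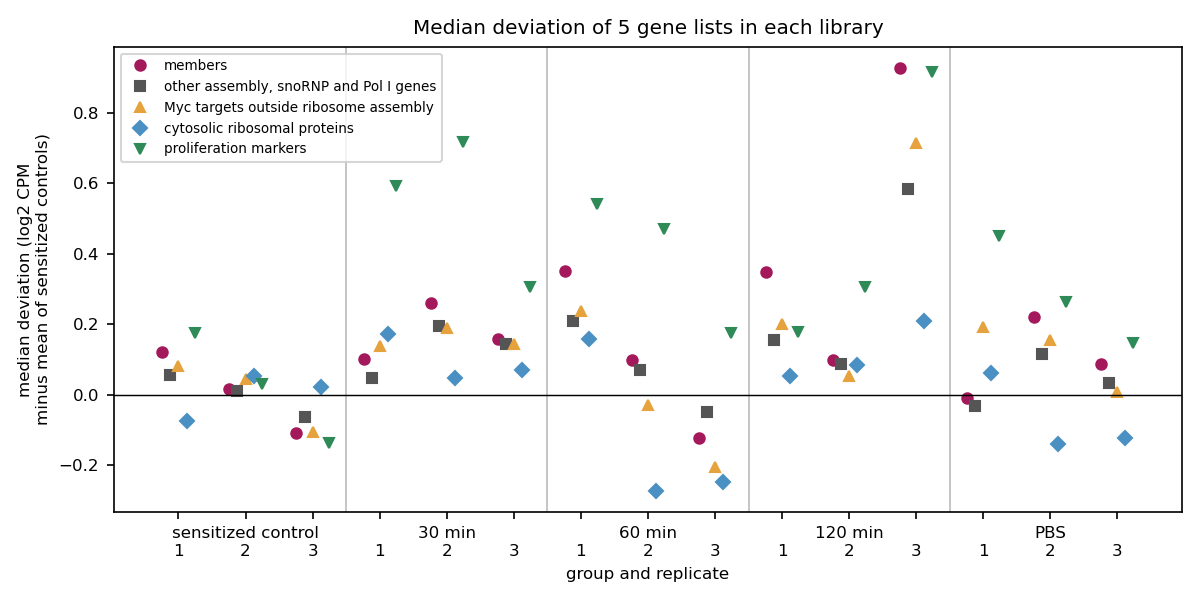
Each point is the median over a gene list of log2 CPM minus the mean of the sensitized controls, in each of the 15 libraries. In 120 min replicate 3 the members (0.93), the other assembly genes (0.59), the Myc targets (0.71), the proliferation markers (0.92) and the ribosomal protein genes (0.21) are each at their highest of the 15 libraries.

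Markers of other cells and of cell division moved with some of these results. The 18 proliferation markers were all positive at 120 min against the sensitized controls (median log2 fold change 0.46, none past the test), and their summed level was 725, 723 and 1100 CPM in the 120 min mice against 683, 624 and 556 CPM in the controls. Without 120 min replicate 3 all 18 were still positive with a median of 0.18. Their median was 0.55 at 30 min and 0.47 at 60 min, when the members had medians of 0.17 and 0.11. The 12 T cell and intraepithelial lymphocyte markers were all negative at 120 min (median -1.68, none past the test), with summed levels of 82.8, 57.3 and 30.4 CPM in the 120 min mice against 89.0, 86.8 and 312 CPM in the controls. The lowest of these sums was in 120 min replicate 3, the library with the highest members. The 8 B and plasma cell markers were all negative as well (median -1.79), with summed levels of 177, 190 and 61.0 CPM in the 120 min mice against 413, 418 and 799 CPM in the controls. Markers of Paneth cells, which secrete antimicrobial proteins at the crypt base, were negative in 8 of 8 tested at 120 min (median -0.69, none past the test), with sums of 2990, 1910 and 3870 CPM in the 120 min mice against 5000, 4160 and 4920 CPM in the controls. Goblet cell markers were negative in 8 of 8 too (median -0.77, none past the test), with sums of 7560, 7540 and 8310 CPM in the 120 min mice against 9920, 14000 and 16100 CPM in the controls. In both secretory lists the 120 min sums lay below all controls.

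The Paneth list went the other way at the earlier times, with medians of 0.61 at 30 min and 0.60 at 60 min, while the goblet list was at -0.28 and -0.70. In 120 min against 60 min mice, 5 of 8 Paneth markers were called lower (median -1.34), beside 80 of all 14968 genes tested. There 1 of 10 crypt base markers was called lower and 2 of 8 epithelial markers higher (88 of all genes higher). None of these calls held without 120 min replicate 3 or without 60 min replicate 3. Against 30 min mice 4 of 8 Paneth markers were called lower (median -1.26), beside 62 of all genes. Brush border markers were negative in 15 of 15 at 30 min (median -0.51) and in 13 of 15 at 60 min (-0.21), when most members were positive, and had a median of 0.05 at 120 min. Crypt base stem cell markers had medians of 0.17, 0.11 and -0.03 at 30, 60 and 120 min, and without 120 min replicate 3 the last was -0.25 with 1 of 10 positive. The general epithelial markers were positive in 6 of 8 at 120 min (median 0.20). Of these Cdx1, an intestinal transcription factor, rose to 166 ± 25.4 CPM in the 120 min mice, against 114 ± 11.1 CPM in the sensitized control mice (SD, n = 3 each; log2 fold change 0.54 ± 0.12, edgeR, Benjamini-Hochberg adjusted p = 0.0435), a call lost without 120 min replicate 3. Erythroid markers were negative in 5 of 5 at 30, 60 and 120 min (medians -2.05, -1.19 and -0.91), with sums of 85.1, 87.2 and 77.5 CPM in the 120 min mice against 125, 152 and 179 CPM in the controls. At 120 min macrophage and dendritic cell markers had a median of -0.11, and stromal and endothelial markers one of -0.92 over the 6 tested, with sums of 7.03 to 8.98 CPM in the 120 min mice against 9.52 to 21.9 CPM in the controls. At 30 min the macrophage and dendritic cell markers were positive in 9 of 9 (median 0.60) and the stromal and endothelial markers in 6 of 6 (median 3.59). Stromal and endothelial sums in the 30 min mice were 234, 6.31 and 19.5 CPM, so replicate 1 stood apart. Macrophage and dendritic cell sums were 549, 143 and 458 CPM there. No marker on these lists was at 0 in every library. The part of these cells in the result was not tested.

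A property that the choice of the list did not use is what the gene bodies hold. In the GENCODE M21 annotation, 7 of the 36 members, or 19.4%, have snoRNA genes inside them (Ncl, Nop56, Nop58, Dkc1, Wdr43, Tsr1 and Gnl3), against 209 of 13044 protein-coding genes tested, or 1.60%. The snoRNAs themselves were not analysed here. Many members share exon sequence with a gene on the opposite strand, among them Nop56 with Idh3b, Bop1 with Mroh1, Heatr1 with Lgals8, Bysl with Ccnd3 and Gnl3 with Pbrm1. Polr1a, Pno1, Dkc1, Wdr43, Gnl2, Pes1, Nhp2 and Nle1 are also among them. The labels used here do not say whether strand was used in quantification, so reads from such stretches cannot be told apart. Ddx21, Myc, Utp20 and Npm1 have no such overlap.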

How the data were processed

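Polyadenylated RNA of 15 jejunal epithelial isolates, 5 groups of 3, was sequenced as 151 bp read pairs. Per the submitters' processing notes, cutadapt 1.18, Salmon 1.2.1 and build mm10 were used. No source used here names the transcript annotation. The authors' deposited tables hold, per the file headers, estimated counts, TPM, lengths and effective lengths for 139058 transcripts.

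Estimated counts were summed to genes with GENCODE M21. With versions ignored, 137943 transcripts matched and 1115, with 0.37% to 0.6% of the counts, did not. Sums were rounded, and genes with low counts were removed by filterByExpr. Deposited TPM was summed per gene to compare levels between genes. All 15 libraries were fitted at once with a mean per group in edgeR 4.0.16 (quasi-likelihood, robust, TMM; R 4.3.3), with Benjamini-Hochberg adjustment over all 14968 genes tested, 10 residual degrees of freedom and a threshold of 0.05. Biological variation between libraries of a group had a common coefficient of 0.26. The division of reads among shared transcripts can move the count of a gene. The procedure was tested on simulated data, in which each gene was drawn on its own. Those data held no shift of a whole library and no trend with transcript length, so they say nothing on how the procedure handles these.

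Alternatives were RLE scaling, no filter, removal of mitochondrially encoded genes, a transcript length offset, only the groups compared, limma-voom (limma 3.58.1), DESeq2 1.42.0, PBS mice as control and each library left out. No libraries held identical values. The members and the other gene lists were chosen with earlier results of these data known, so no test over a list is given. Named with values in every library are Myc, members past the threshold or else the 3 with the smallest p in each main comparison, and the member with the highest TPM of each role. Genes of other lists that are named were past the threshold or among the 3 smallest p of a list, but not every such gene is named. Heatr1, Gar1, Nop56 and Gnl3l were named after their values were seen. Promoter sequences are from RefSeq, build GRCm38.p6.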

Additional observations from a re-analysis of the deposited data

Results flagged for a closer look

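Myc is singled out because 2 of its time points differ by a test of the difference itself. It was higher in the 120 min mice than in the 60 min mice by 0.999 on the log2 scale (SE 0.211, edgeR's quasi-likelihood test with Benjamini-Hochberg adjusted p = 0.0386), with 30.2, 25.7 and 45.7 CPM at 120 min and 19.2, 20.2 and 11.3 CPM at 60 min, so all 3 libraries at 120 min were above all 3 at 60 min. The value was positive under every alternative run for it, and the adjusted p went as high as 0.22, with only the groups compared.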

How the results depend on the processing

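At 120 min against the sensitized controls, 1 member passed in the fit reported, where 1.25% of all genes did in either direction, against 3 with no filter on low counts (0.979% of all genes), 0 with a transcript length offset (0.227%), 0 with only the groups compared (0.976%), 7 in DESeq2 (Utp20, Ddx21, Pno1, Ncl, Gnl2, Dkc1 and Wdr43; 5.65%) and 0 to 1 with a library left out. With a library left out, the most genes called there were 129 higher and 114 lower of 15424, without 120 min replicate 2. The median of the 36 was 0.217 to 0.648 with a library left out, lowest without 120 min replicate 3. The adjusted p of Ddx21 was 0.062 with the length offset, 0.0571 with only the groups compared, and up to 0.131 with a library left out. At 60 min 0 passed (0.00668% of all genes), against 1 in DESeq2 (1.26%) and 0 to 1 with a library left out, the 1 without 60 min replicate 1 (2.5%). For the mean of the 3 times 0 passed (0.0% of all genes), against 2 in DESeq2 (1.15%). In 120 min against 60 min mice 1 passed (1.12% of all genes), against 0 with the length offset (0.307%), 0 with only the groups compared (0.0%), 0 without both replicates 3 (0.0%), where the median was -0.05, 3 in DESeq2 (6.35%) and 0 to 2 with a library left out, with medians of 0.129 to 0.529. With a library left out, the most genes called in that comparison were 603 higher and 548 lower of 15421, without 60 min replicate 1. In 120 min against 30 min mice 0 passed (1.01% of all genes), against 1 with no filter (0.743%) and 2 in DESeq2 (5.6%), and the median was 0.024 to 0.445 with a library left out. In the joint test 0 passed (0.521% of all genes), against 3 with no filter (1.34%), 4 in DESeq2 (7.16%) and 0 to 1 with a library left out. Of all genes, the joint test called between 0 (without 120 min replicate 3) and 356 of 15421 (without 60 min replicate 1). Myc over the mean of the 3 times had a log2 fold change of 0.03, which changed sign to -0.03 with the length offset, to -0.132 with PBS mice as control, and to -0.004, -0.02 and -0.059 without 60 min replicate 1, 60 min replicate 2 and 120 min replicate 3 in turn, in a range of -0.059 to 0.105 over all single libraries left out. The cause of these shifts was not tested. The other 219 alternative values of counts and medians stayed within 1.5 times the reported count or within 0.233, the SD between libraries of the median member. That margin is wider than the medians at 30 min (0.17) and at 60 min (0.11). It is also wider than those of sensitization alone (-0.11) and of 60 min against 30 min (-0.08). For these 4 medians, staying within it does not show that the sign was kept. No paired analysis was possible because the titles of all libraries carry different numbers and no label pairs them. The smallest count of a member in any library was 79.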
